A study of Mus musculus with 2 samples.

Results

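Csf2-high cells are the barcodes of a Krt8-positive, Rhox5-positive tumour cell gate that held at least 5 unique molecular identifiers (UMIs) of Csf2, the gene of the cytokine GM-CSF. The series holds 2 droplet single-cell libraries from subcutaneous tumours of CMT167R cells, a derivative of the mouse lung carcinoma line CMT167 labelled anti-PD1 resistant, with genotype WT. One library came from C57BL/6 mice given 3 mg/kg of an agent labelled PKCi daily by the intraperitoneal route, and the other from mice given control solvent. Both groups received 1000000 cells per mouse, and tumours were taken once those of the solvent group measured 400 mm3. Neither the number of mice behind a library nor the compound behind the name PKCi is given in the labels. The gate kept barcodes with at least 500 genes, at least 10000 UMIs, at most 20% mitochondrial UMIs, 0 Ptprc UMIs and at least 3 UMIs each of Krt8 and Rhox5. It held 8735 of the 14145 deposited barcodes, and 1294 of these were Csf2-high, 953 of 4475 in the PKCi library and 341 of 4260 in the control library.

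GM-CSF is a secreted growth factor that drives myeloid progenitors, monocytes, macrophages and granulocytes through a receptor that signals by JAK2 and STAT5. In T cells the Csf2 promoter is switched on by NF-kB, AP-1, NFAT, ETS and RUNX factors, and its messenger RNA is short-lived because of AU-rich elements. Protein kinase C enzymes relay receptor signals to NF-kB and AP-1. NF-kB also drives its own inhibitors, such as Nfkbia and Tnfaip3, and many chemokine genes. Carcinoma cells of several origins are known to make GM-CSF and myeloid chemokines.

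Every value below is a sum over the cells of 1 library, since cells of 1 tumour suspension are not replicates. Levels are in CPM, the UMIs of a gene per 1000000 UMIs of the summed cells. With 1 library per treatment no test was possible, a treatment difference and a library difference cannot be told apart, and the 95% intervals cover counting error only.

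The cells fitted the rule, and several epithelial genes other than Krt8 were at or near 0 in them. Krt8, a keratin of simple epithelia that the rule selected on, stood at 587 CPM in Csf2-high cells and 455 CPM in partners of the PKCi library, and at 493 CPM in Csf2-high cells and 373 CPM in partners of the control library. Rhox5, a homeobox gene of the X chromosome that the rule also selected on, stood at 455 CPM in Csf2-high cells and 474 CPM in partners of the PKCi library, and at 504 CPM in Csf2-high cells and 537 CPM in partners of the control library. Vim, the vimentin gene of mesenchymal cells, stood at 2756 CPM in Csf2-high cells and 2701 CPM in partners of the PKCi library, and at 2728 CPM in Csf2-high cells and 2726 CPM in partners of the control library. Epcam, an epithelial adhesion gene, had 0 UMIs in all 4 groups, with upper limits of 0.0861 CPM in PKCi and 0.224 CPM in control Csf2-high cells, and Krt19, Cldn3 and Nkx2-1 also had 0 UMIs in Csf2-high cells. Cdh1, the gene of E-cadherin, had 6 UMIs over the PKCi and 2 over the control Csf2-high cells. Of the 12 genes of the epithelial list, 5 had 0 UMIs in the Csf2-high cells of each library. Krt18, another keratin of that list, was present at 4.74 CPM in Csf2-high cells and 3.38 CPM in partners of the PKCi library. In the control library it stood at 6.63 and 5.18 CPM, and 1 barcode held 31.2% of its UMIs in Csf2-high cells. The cells are called Csf2-high cells here, after the gene that chose them. Xist, the RNA of the inactive X chromosome, was at 1.21 CPM in Csf2-high cells and 1.29 CPM in partners of the PKCi library, and at 1.7 CPM in Csf2-high cells and 0.670 CPM in partners of the control library.

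Each Csf2-high cell was paired with the gate barcode of its own library that held 0 Csf2 UMIs and was nearest in total UMIs. Partners were found for 951 of 953 PKCi cells and all 341 control cells. Median depth was 39336 UMIs in Csf2-high cells and 39341 in partners of the PKCi library, and 41901 and 41906 in those of the control library. Csf2-high cells had a median of 6222 genes and 1.52% mitochondrial UMIs in the PKCi library, against 6255 genes and 1.54% in partners. In the control library they had 6343 genes and 1.70%, against 6500 genes and 1.77% in partners. The libraries shared 20 barcode sequences, of which 1 was Csf2-high in each, and the doublet caller Scrublet marked 3 PKCi and 4 control Csf2-high cells. Among markers of other cell types, those of fibroblasts had the largest sum in each of the 4 groups. The 10 macrophage markers summed to 58.2 CPM in Csf2-high cells and 62.8 CPM in partners of the PKCi library, and to 82.7 and 39.9 CPM in those of the control library, and 1 barcode held 43.2% of the Lyz2 UMIs of the control Csf2-high cells. The 10 neutrophil markers summed to 12.3 CPM in Csf2-high cells and 13.1 CPM in partners of the PKCi library, and to 47.4 and 42.4 CPM in those of the control library. The 12 T and NK markers stayed at or below 3.65 CPM, the 8 mast cell and basophil markers at or below 1.43 CPM and the 6 red cell genes at or below 1.28 CPM in each of the 4 groups. Fibroblast markers summed to 129.7 CPM in Csf2-high cells and 144 CPM in partners of the PKCi library, and to 149.9 and 212 CPM in those of the control library, and endothelial markers to 71.3 CPM in Csf2-high cells and 74.9 CPM in partners of the PKCi library, and to 65.3 and 70.3 CPM in those of the control library. The part of these markers in the results was not tested.

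Csf2 (ENSMUSG00000018916) lies on the minus strand of chromosome 11, from 54247271 to 54249667 of GRCm38. Most gate cells held none of it, and a long tail held many UMIs. Of the PKCi gate, 51.1% held 0 and 27.6% held 1 to 4 Csf2 UMIs, and of the control gate 75.2% and 16.8%. The Csf2-high cells divided into 436 PKCi and 190 control cells with 5 to 9 UMIs, 337 and 113 with 10 to 19, and 180 and 38 with 20 or more. They held 84.6% of all Csf2 UMIs of the PKCi gate and 75.1% of those of the control gate. Per cell the lowest count was 5 in both libraries, the median 10 in the PKCi and 9 in the control library, and the highest 60 and 52. The variance of Csf2 UMIs over the gate was 13.5 times the mean in the PKCi and 12 times in the control library. After every cell was thinned to 10000 UMIs it was still 4.5 and 3.66 times the mean. No gap separated the classes, for just inside the threshold 126 PKCi and 57 control cells held 5 UMIs and 111 and 38 held 6, and just outside it 128 and 80 cells held 4 and 199 and 92 held 3. These counts were selected on and carry no test.

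**Figure D1:**
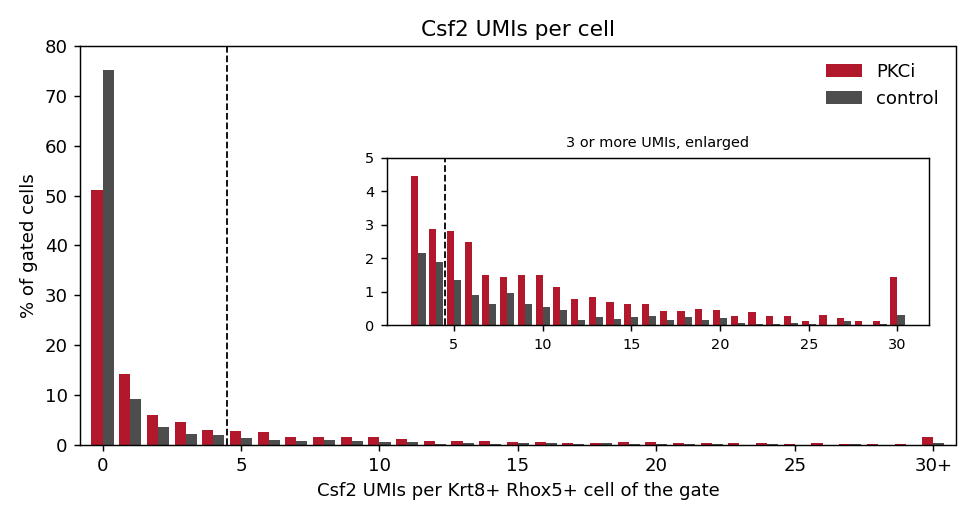
Share of the gate (vertical axis, %) by Csf2 UMIs per cell (horizontal axis; the last class is 30 or more) for the PKCi library (red) and the control library (grey), with the threshold of 5 UMIs as a dashed line and an enlarged inset from 3 UMIs. The class of 0 UMIs holds 51.1% of PKCi and 75.2% of control cells, and counts fall off smoothly across the threshold.

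The Csf2-high state was more frequent in the PKCi library at every depth. Csf2-high cells made up 21.3% (20.1 to 22.5, exact Clopper-Pearson) of the PKCi gate and 8.0% (7.21 to 8.86) of the control gate, a ratio of 2.66 (2.37 to 2.99). Among gate cells of 10000 to 20000 UMIs the shares were 11.4% in the PKCi and 4.76% in the control library, and from 20000 to 40000 UMIs they were 20.9% and 7.11%. From 40000 to 80000 UMIs they were 21.7% and 8.37%, and at 80000 UMIs or more 39.0% and 16.1%. The ratio of the shares thus lay between 2.39 and 2.94 in the 4 bands, although the share itself grew with depth. With all gate cells thinned to 10000 UMIs, at least 2 Csf2 UMIs were kept by 17.3% of PKCi and 6.43% of control cells, a ratio of 2.69 (2.36 to 3.07). At least 5 were kept by 5.65% and 1.34%, a ratio of 4.23 (3.18 to 5.61).

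**Figure D2:**
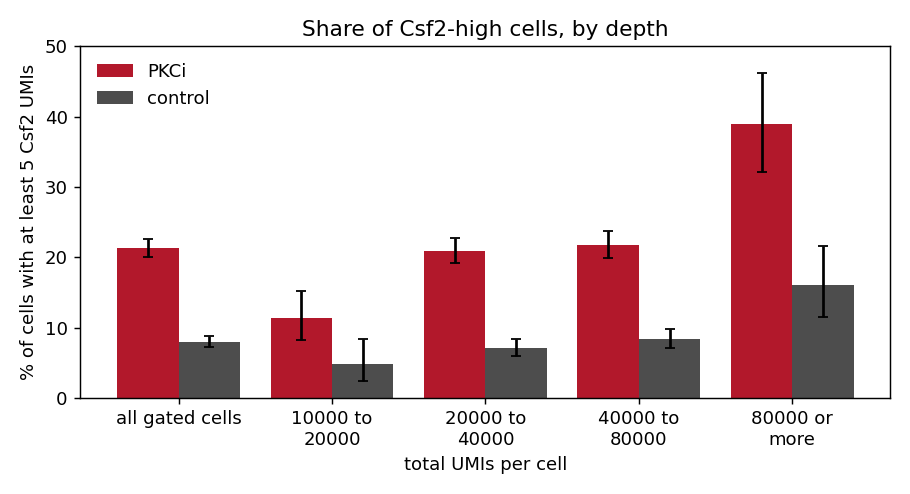
Share of gate cells with at least 5 Csf2 UMIs (vertical axis, %) over the whole gate and in 4 bands of total UMIs per cell (horizontal axis) for the PKCi library (red) and the control library (grey); error bars are exact 95% intervals that cover counting error only. The PKCi bar is the taller in each band, from 11.4% against 4.76% in the shallowest to 39.0% against 16.1% in the deepest.

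The level of Csf2 within Csf2-high cells is given as a description, since the rule selected on it. Csf2 stood at 292 CPM (287 to 297) in PKCi and 237 CPM (230.03 to 245) in control Csf2-high cells, a ratio of 1.23 (1.19 to 1.27). Over the whole gate it stood at 80.3 CPM in the PKCi and 28.2 CPM in the control gate, a ratio of 2.85 (2.76 to 2.94). In both libraries the threshold of 5 UMIs holds the lower end of the levels in Csf2-high cells in place, and these levels were selected on. The ratio of 1.23 therefore cannot show whether level or share differed more between libraries. Cells with 20 or more Csf2 UMIs made up 4.02% of the PKCi and 0.892% of the control gate.

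Other cells of the same libraries carried far less Csf2, a value that counts free RNA together with any Csf2 that these cells make. Barcodes of the same depth and quality limits with Ptprc, with 0 Krt8 and 0 Rhox5 UMIs, and with at least 3 C1qa UMIs (macrophages) or 2 Cd3e or Nkg7 UMIs (T and NK cells) served as its measure. At least 1 Csf2 UMI was found in 15 of 155 PKCi macrophages (9.68%) and 4 of 89 control macrophages (4.49%), against 48.9% of the PKCi and 24.8% of the control gate. At least 5 were found in 1 of 155 and 1 of 89 macrophages, 0.645% and 1.12%. Their Csf2 level was 11.8 CPM in the PKCi and 5.84 CPM in the control library, and 1 barcode held 13 of the 27 UMIs in the PKCi and 7 of the 10 in the control library. Macrophages were shallower, with medians of 13936 UMIs in the PKCi and 17785 in the control library, against 37552 and 39464.5 in the gate. Of the T and NK barcodes, 0 of 24 in the PKCi library held 5 or more Csf2 UMIs, and 0 of 16 in the control library. The limit of 3 counts allows shares of up to 12.5% and 18.8%, and the upper ends of the exact intervals are 14.2% and 20.6%.

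In both libraries Csf2-high cells carried more RNA of the myeloid chemokines Ccl2, Cxcl1 and Cxcl2 and the macrophage growth factor Csf1 than their partners. They also carried more of the NF-kB pathway genes Tnfaip3, Traf1 and Nfkbiz, and less of several mitotic genes. A gene was counted as higher when its ratio reached 1.5 in both libraries with both intervals above 1, among genes with at least 50 UMIs per library and 20 CPM in 1 of the groups of each. Of 6255 genes measured this way, 28 were higher (0.448%) and 11 lower (0.176%). Within single libraries 60 of these 6255 genes were higher and 35 lower in the PKCi library, 55 and 28 in the control library, and 0 genes were higher in one library and lower in the other. With size factors from the median of ratios the split was 38 higher and 6 lower.

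**Figure D3:**
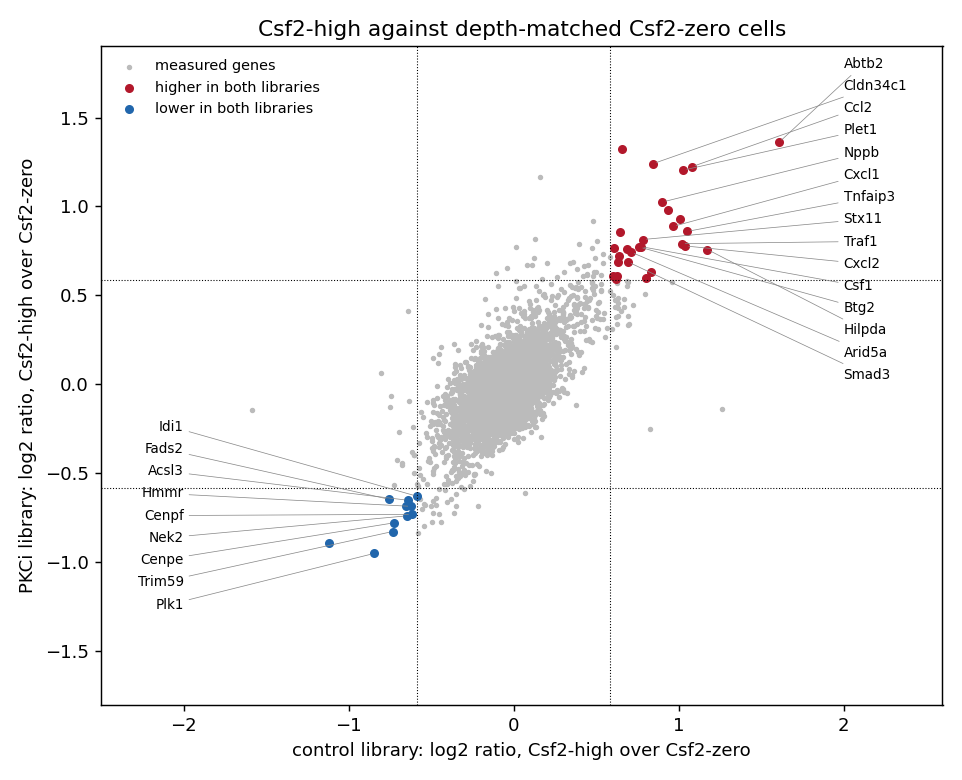
Log2 ratio of Csf2-high cells over their depth-matched Csf2-zero partners in the PKCi library (vertical axis) and in the control library (horizontal axis), 1 point per measured gene, with dotted lines at 1.5-fold. The 28 genes higher in both libraries are red and the 11 lower in both are blue, and names are given for the 15 highest and for the lower genes described in the text.

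Among the 28 higher genes, Cxcl1, Ccl2 and Cxcl2 had the largest differences in CPM in both libraries. Ccl2 (chromosome 11, 82035571 to 82037453, plus strand), which draws monocytes through CCR2, stood at 1789 CPM in Csf2-high cells and 767 CPM in partners of the PKCi library, and at 2551 CPM in Csf2-high cells and 1207 CPM in partners of the control library. Its ratio was 2.33 (2.3 to 2.36) in the PKCi library and 2.11 (2.08 to 2.15) in the control library. The median cell held 55 UMIs in Csf2-high cells and 12 in partners of the PKCi library, and 99 and 35 in those of the control library. The quartile range of PKCi cells lay between 23 and 112 UMIs in Csf2-high cells and between 4 and 38 in partners, and that of control cells between 52 and 160 and between 11 and 72, so the groups overlapped in part. Cxcl1 (chromosome 5, 90891241 to 90893115, plus strand), a ligand of the neutrophil receptor CXCR2, stood at 2567 CPM in Csf2-high cells and 1388 CPM in partners of the PKCi library, and at 3020.0 CPM in Csf2-high cells and 1545 CPM in partners of the control library. The ratio was 1.85 (1.83 to 1.87) in the PKCi library and 1.95 (1.92 to 1.98) in the control library, and the median cell held 104 UMIs in Csf2-high cells and 46 in partners of the PKCi library, and 129 and 55 in those of the control library. Its neighbour Cxcl2 (90903871 to 90905938, plus strand), another CXCR2 ligand, stood at 1389 CPM in Csf2-high cells and 810.2 CPM in partners of the PKCi library, and at 2201 CPM in Csf2-high cells and 1071 CPM in partners of the control library. That made ratios of 1.71 (1.69 to 1.74) in the PKCi library and 2.06 (2.02 to 2.09) in the control library. Both genes were thus higher in Csf2-high cells, and in each the highest level was that of the control Csf2-high cells. The other 5 genes of the CXCR2 list, which also holds the platelet factor gene Pf4, did not pass the filter on low values. Cxcl3 stood at 4.85 CPM in Csf2-high cells and 7.13 CPM in partners of the PKCi library, and at 30.1 CPM in Csf2-high cells and 12.2 CPM in partners of the control library, and 1 barcode held 48.9% of the UMIs of the control Csf2-high cells.

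Of the 15 other chemokines looked at, 4 were measured and only Ccl2 reached 1.5-fold in both libraries. Ccl7, a neighbour of Ccl2 that also binds CCR2, had log2 ratios of 0.37 in the PKCi and 0.24 in the control library. For Cxcl10, a ligand of CXCR3 on T cells, they were 0.33 in the PKCi and 0.69 in the control library, and 1 barcode held 16.4% of its UMIs in control Csf2-high cells. For Ccl6 they were -0.25 in the PKCi and 0.83 in the control library, below 0 in one library and above it in the other, and 1 control barcode held 40.7% of the UMIs.

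Among the 2 cytokine genes of the list that passed the filter on low values, 1 was higher. Csf1 (chromosome 3, 107741048 to 107760469, minus strand), the gene of the macrophage growth factor M-CSF, stood at 681 CPM in Csf2-high cells and 398 CPM in partners of the PKCi library, and at 768 CPM in Csf2-high cells and 450.1 CPM in partners of the control library. The ratio was 1.71 (1.68 to 1.74) in the PKCi library and 1.71 (1.66 to 1.76) in the control library. Il34, the other ligand of the Csf1 receptor, stood at 27.7 CPM in Csf2-high cells and 19.1 CPM in partners of the PKCi library, and at 30.7 CPM in Csf2-high cells and 22.05 CPM in partners of the control library, with log2 ratios of 0.54 in the PKCi and 0.48 in the control library. The other 16 cytokines of the list were under the filter, which leaves out genes of few UMIs whatever their ratio. Csf3, the gene of the granulocyte factor G-CSF, was at 8.91 CPM in Csf2-high cells and 5.17 CPM in partners of the PKCi library, and at 19.8 CPM in Csf2-high cells and 3.11 CPM in partners of the control library. The ratio was 1.72 (1.46 to 2.05) in the PKCi library and 6.31 (4.73 to 8.73) in the control library, and 1 barcode held 21.2% of its UMIs in PKCi partners and 11.4% in control Csf2-high cells. Lif, a cytokine of the interleukin 6 family, was at 5.06 CPM in Csf2-high cells and 2.1 CPM in partners of the PKCi library, and at 8.27 CPM in Csf2-high cells and 2.8 CPM in partners of the control library. Its ratio was 2.41 (1.88 to 3.13) in the PKCi library and 2.93 (2.1 to 4.22) in the control library, so these 2 low genes had ratios at or above that of Csf1 in both libraries. Il6 was near 0, at 0.560 CPM in Csf2-high cells and 1.14 CPM in partners of the PKCi library, and at 0.608 CPM in Csf2-high cells and 0.609 CPM in partners of the control library. The receptor of GM-CSF was near 0 as well, with Csf2ra at 0.933 CPM in Csf2-high cells and 1.22 CPM in partners of the PKCi library, and at 1.28 CPM in Csf2-high cells and 0.365 CPM in partners of the control library.

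The EGF receptor ligands and proteolysis genes leaned the same way. Ereg, the gene of epiregulin, lies on chromosome 5 near the Cxcl genes (91074622 to 91093646, plus strand) and was higher in both libraries, with ratios of 1.5 (1.39 to 1.63) in the PKCi library and 1.54 (1.38 to 1.72) in the control library. Areg, the amphiregulin gene, had log2 ratios of 0.57 in the PKCi and 0.96 in the control library, and Hbegf, which encodes a heparin-binding ligand, 0.53 in the PKCi and 0.59 in the control library. Both stayed just under 1.5-fold in the PKCi library, and the other 4 ligands of the list were under the filter. Plau, the gene of urokinase, was higher, at 30.3 CPM in Csf2-high cells and 19.97 CPM in partners of the PKCi library, and at 21.05 CPM in Csf2-high cells and 12.1 CPM in partners of the control library. Of the 5 measured genes of the plasminogen and protease list, 1 was higher, 0 were lower and 5 had log2 ratios above 0 in both libraries. Of all 6255 measured genes, 0.448% were higher and 1333 had log2 ratios above 0 in both.

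Of the 11 neighbours of Csf2 on chromosome 11 looked at, 4 were measured. All 4 had log2 ratios above 0 in both libraries, as had 1333 of all 6255 measured genes, and 0 reached 1.5-fold in both. Their median was 0.32 in the PKCi and 0.37 in the control library, against -0.05 and -0.05 over all measured genes. Il3, the nearest cytokine gene (54265303 to 54267277), and Il13 had 0 UMIs in Csf2-high cells and partners of both libraries. Il5 had 0 UMIs in the Csf2-high cells of both libraries, and Il4 had 2 in the PKCi and 1 in the control library. Irf1 (53770014 to 53778374), a transcription factor gene that interferon and NF-kB switch on, stood at 245 CPM in Csf2-high cells and 164 CPM in partners of the PKCi library, and at 243 CPM in Csf2-high cells and 151 CPM in partners of the control library, with log2 ratios of 0.58 in the PKCi and 0.68 in the control library. Slc22a4, a carnitine and ergothioneine transporter gene, had log2 ratios of 0.54 in the PKCi and 0.38 in the control library.

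The start regions of the genes that moved together are shown with their NF-kB consensus matches, since NF-kB pathway genes were among them. RefSeq windows of 300 bases, from 250 before to 50 after the start on GRCm38.p6, were at hand for 19 of the 29 genes formed by Csf2 and the 28 higher genes. The 10-base NF-kB consensus, searched on both strands, was in 4 of these 19, namely Cxcl1, Cxcl2, Csf1 and Tnfaip3, and in 4.51% of all 32851 windows (5.14% of 27025 genes). TGANTCA, the AP-1 motif, was in 4 of the 19 (Hilpda, Plet1, Ptpre and Tnfaip3) and in 8.97% of genes. Capitals in the following lines mark these matches. In Cxcl1 (chr5:90890995-90891294, plus strand) and Cxcl2 (chr5:90903649-90903948, plus strand) the capitals are 2 overlapping NF-kB matches on opposite strands of 1 run.
Cxcl1: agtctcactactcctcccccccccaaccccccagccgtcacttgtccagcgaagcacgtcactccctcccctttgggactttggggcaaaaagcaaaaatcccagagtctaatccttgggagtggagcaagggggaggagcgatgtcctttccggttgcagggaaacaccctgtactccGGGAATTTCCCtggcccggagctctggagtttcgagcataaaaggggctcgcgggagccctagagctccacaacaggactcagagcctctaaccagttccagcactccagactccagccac
Cxcl2: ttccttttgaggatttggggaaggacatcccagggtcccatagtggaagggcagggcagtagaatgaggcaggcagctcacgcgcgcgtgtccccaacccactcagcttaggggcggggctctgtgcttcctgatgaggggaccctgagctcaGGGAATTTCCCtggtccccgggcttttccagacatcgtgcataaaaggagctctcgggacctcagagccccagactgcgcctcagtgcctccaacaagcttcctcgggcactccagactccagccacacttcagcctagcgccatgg
The Csf1 window (chr3:107760420-107760719, minus strand) holds 1 NF-kB match.
Csf1: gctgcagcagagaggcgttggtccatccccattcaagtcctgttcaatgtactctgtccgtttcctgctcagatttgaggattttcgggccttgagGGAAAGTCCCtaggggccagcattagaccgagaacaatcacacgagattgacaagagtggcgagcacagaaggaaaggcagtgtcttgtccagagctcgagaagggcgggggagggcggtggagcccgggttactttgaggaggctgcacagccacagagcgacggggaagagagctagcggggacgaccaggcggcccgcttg
Tnfaip3 has 2 RefSeq windows, of which the other (chr10:19011914-19012213) holds 0 matches. The window shown (chr10:19015361-19015660, minus strand) surrounds a start downstream of the GENCODE start of the gene, and the first run of capitals is TGANTCA and the other two are NF-kB matches.
Tnfaip3: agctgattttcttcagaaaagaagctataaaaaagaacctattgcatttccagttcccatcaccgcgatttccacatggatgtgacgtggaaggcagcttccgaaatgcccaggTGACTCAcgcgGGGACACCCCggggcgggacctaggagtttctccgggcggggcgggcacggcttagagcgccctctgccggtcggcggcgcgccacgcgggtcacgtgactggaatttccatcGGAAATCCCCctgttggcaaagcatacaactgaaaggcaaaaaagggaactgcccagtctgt
The Csf2 window (chr11:54249850-54250149, minus strand) surrounds a RefSeq start that lies upstream of the gene as GENCODE draws it, and it holds 0 matches of either motif. It ends short of the GENCODE start at 54249667, and the bases just before that start were not read. Csf2 is among the 19 genes on the strength of this upstream window alone.
Csf2: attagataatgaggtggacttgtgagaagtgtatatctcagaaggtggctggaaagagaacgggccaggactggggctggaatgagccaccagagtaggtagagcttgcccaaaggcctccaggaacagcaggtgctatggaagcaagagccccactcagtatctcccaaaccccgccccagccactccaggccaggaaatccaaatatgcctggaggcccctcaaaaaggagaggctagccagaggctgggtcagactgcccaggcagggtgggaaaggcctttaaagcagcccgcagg
A match is a run of letters and not a measured site, and the missing matches in the Csf2 window say only that these letters are not there.

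The listed genes of NF-kB subunits, of their inhibitors and of other NF-kB pathway proteins leaned upwards together. Of the 15 genes listed, 14 were measured, 3 were higher and 0 lower in both libraries, and 14 had log2 ratios above 0 in both, against 1333 of all 6255 measured genes. The median log2 ratio was 0.47 in the PKCi and 0.36 in the control library, against -0.05 and -0.05 over all measured genes. Tnfaip3 (chromosome 10, 19000910 to 19015657, minus strand), which encodes the A20 enzyme that shuts NF-kB signalling down, stood at 104 CPM in Csf2-high cells and 57.4 CPM in partners of the PKCi library, and at 102 CPM in Csf2-high cells and 48.9 CPM in partners of the control library. The ratio was 1.81 (1.73 to 1.91) in the PKCi library and 2.08 (1.91 to 2.26) in the control library. It was detected in 90.2% of Csf2-high cells and 70.98% of partners in the PKCi library and in 89.7% and 69.2% in the control library. Traf1, a signalling adaptor of TNF receptors, stood at 113 CPM in Csf2-high cells and 65.04 CPM in partners of the PKCi library, and at 117 CPM in Csf2-high cells and 57.7 CPM in partners of the control library. Nfkbiz, the gene of the nuclear inhibitor-like protein I-kB zeta, stood at 364 CPM in Csf2-high cells and 226 CPM in partners of the PKCi library, and at 327 CPM in Csf2-high cells and 211 CPM in partners of the control library, with ratios of 1.61 in the PKCi and 1.55 in the control library. The rest did not reach 1.5-fold in both libraries. Nfkbia, the I-kB alpha inhibitor, had log2 ratios of 0.55 in the PKCi and 0.69 in the control library, and Nfkb1, the p105 and p50 gene, 0.62 in the PKCi and 0.45 in the control library. Rela had 0.23 in the PKCi and 0.27 in the control library, Rel 0.23 in the PKCi and 0.35 in the control library, Relb 0.29 in the PKCi and 0.37 in the control library and Nfkb2 0.14 in the PKCi and 0.14 in the control library.

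AP-1 genes leaned upwards by smaller amounts. Of 12 listed, 9 were measured, 0 reached 1.5-fold in both libraries and 9 had log2 ratios above 0 in both, against 1333 of all 6255 measured genes. The median was 0.28 in the PKCi and 0.26 in the control library. Fos stood at 1071 CPM in Csf2-high cells and 725 CPM in partners of the PKCi library, and at 546 CPM in Csf2-high cells and 465 CPM in partners of the control library. Its log2 ratio was 0.56 in the PKCi and 0.23 in the control library, and that of Fosb 0.59 in the PKCi and 0.17 in the control library. In both genes the step between Csf2-high cells and partners was larger in the PKCi library, a difference that was not tested. Junb had log2 ratios of 0.43 in the PKCi and 0.45 in the control library, Atf3 0.46 in the PKCi and 0.52 in the control library, Fosl1 0.26 in the PKCi and 0.35 in the control library, Jun 0.27 in the PKCi and 0.32 in the control library, Jund 0.28 in the PKCi and 0.26 in the control library, Maff 0.20 in the PKCi and 0.24 in the control library and Fosl2 0.12 in the PKCi and 0.25 in the control library.

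Among other immediate early genes, 9 of 17 were measured, 1 was higher and 8 had log2 ratios above 0 in both libraries. Of all 6255 measured genes, 0.448% were higher and 1333 had log2 ratios above 0 in both. The list had a median of 0.33 in the PKCi and 0.36 in the control library. Btg2, which encodes an antiproliferative protein, was the higher one, at 52.02 CPM in Csf2-high cells and 30.5 CPM in partners of the PKCi library, and at 46.3 CPM in Csf2-high cells and 27.3 CPM in partners of the control library. Klf2, a Krüppel-like factor gene, had log2 ratios of 0.53 in the PKCi and 0.48 in the control library, Ier3 0.44 in the PKCi and 0.67 in the control library and Myc 0.45 in the PKCi and 0.43 in the control library. Of 17 genes that feed back on ERK signalling, 13 were measured and 2 were higher. These were the MAP kinase phosphatase genes Dusp2, with ratios of 1.55 in the PKCi and 1.78 in the control library, and Dusp5, with 1.53 in the PKCi and 1.52 in the control library. The median of that list was 0.25 in the PKCi and 0.06 in the control library. NFAT and calcineurin genes (7 of 10 measured) had a median of 0.14 in the PKCi and -0.03 in the control library, and 0 were higher or lower. For the ETS and RUNX genes (6 of 8 measured) it was 0.05 in the PKCi and -0.02 in the control library, with Runx1 at 0.49 in the PKCi and 0.19 in the control library and Ets1 at 0.03 in the PKCi and 0.05 in the control library. Proteins that bind AU-rich messages were level as a list, with 10 of 10 measured, 0 higher or lower and a median of 0.01 in the PKCi and -0.04 in the control library. Within it Zfp36, the tristetraprolin gene, had log2 ratios of 0.57 in the PKCi and 0.63 in the control library, and Zc3h12a, the gene of the RNase regnase-1, 0.73 in the PKCi and 0.54 in the control library.

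The gene with the highest ratio belonged to none of these lists. Abtb2, which encodes an ankyrin repeat and BTB domain protein, stood at 49.1 CPM in Csf2-high cells and 19.1 CPM in partners of the PKCi library, and at 51.9 CPM in Csf2-high cells and 16.99 CPM in partners of the control library. The ratio was 2.57 (2.37 to 2.79) in the PKCi library and 3.05 (2.66 to 3.51) in the control library, and the gene was detected in 45.01% of Csf2-high cells and 29.9% of partners in the PKCi library and in 47.5% and 28.2% in the control library. Plet1, a membrane protein gene first found in placenta, had ratios of 2.3 in the PKCi and 2.04 in the control library. For Nppb, the natriuretic peptide gene, they were 2.04 in the PKCi and 1.87 in the control library, and for the claudin family gene Cldn34c1 2.36 in the PKCi and 1.8 in the control library. Stx11, a syntaxin gene of vesicle fusion, had 1.76 in the PKCi and 1.72 in the control library, and Hilpda, which encodes a lipid droplet protein induced in hypoxia, 1.69 in the PKCi and 2.26 in the control library. Arid5a, whose protein stabilises cytokine messages in mouse immune cells, had 1.67 in the PKCi and 1.64 in the control library. Smad3, a transducer of TGF-beta signals, had 1.61 in the PKCi and 1.62 in the control library. The other named genes that passed were St3gal1, Cfap58, Ptpre, Bhlhe40 and Zeb1, with ratios between 1.52 and 1.81, and the remaining 3 are predicted genes without a name.

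Csf2-high cells carried less RNA of mitotic genes. Of the 22 genes of the G2/M list, 22 were measured, 4 were lower and 0 higher in both libraries, and 22 had log2 ratios under 0 in both, against 3195 of all measured genes. The median log2 ratio was -0.56 in the PKCi and -0.41 in the control library. Plk1, a kinase that drives entry into mitosis, stood at 20.9 CPM in Csf2-high cells and 40.4 CPM in partners of the PKCi library, and at 21.3 CPM in Csf2-high cells and 38.3 CPM in partners of the control library. The ratio was 0.518 (0.477 to 0.561) in the PKCi library and 0.556 (0.486 to 0.634) in the control library. Cenpe, the gene of a kinetochore motor, stood at 83.8 CPM in Csf2-high cells and 144 CPM in partners of the PKCi library, and at 83.6 CPM in Csf2-high cells and 138 CPM in partners of the control library. Cenpf, another kinetochore gene, had ratios of 0.603 in the PKCi and 0.653 in the control library, and Hmmr, the gene of a spindle-associated hyaluronan receptor, 0.622 in the PKCi and 0.651 in the control library. Outside the list the mitotic kinase gene Nek2 had 0.599 in the PKCi and 0.638 in the control library and Trim59 0.564 in the PKCi and 0.601 in the control library. After thinning to 10000 UMIs, 75% (72.1 to 77.7) of Csf2-high cells and 84.1% (81.6 to 86.4) of partners in the PKCi library held at least 3 G2/M genes. In the control library these shares were 80.1% (75.4 to 84.2) and 80.6% (76.0 to 84.7), and their intervals overlap, so the lower CPM of these genes there was not seen as a lower share of cells. Without thinning they were 92.8% and 95.5% in the PKCi and 95.6% and 95% in the control library. The S phase list, with 20 of 22 genes measured, had a median of -0.05 in the PKCi and 0.03 in the control library.

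Idi1, Fads2 and Acsl3, enzyme genes of lipid metabolism, were also lower, and no gene list was set for that pathway. Idi1, an early enzyme gene of cholesterol synthesis, stood at 30.1 CPM in Csf2-high cells and 46.5 CPM in partners of the PKCi library, and at 38.99 CPM in Csf2-high cells and 58.6 CPM in partners of the control library. Its ratios were 0.647 in the PKCi and 0.666 in the control library. Fads2, a fatty acid desaturase gene, had 0.639 in the PKCi and 0.593 in the control library, and Acsl3, an acyl-CoA synthetase gene, 0.637 in the PKCi and 0.643 in the control library. The call of Idi1 was lost in 14 of the alternatives, that of Acsl3 in 7 and that of Fads2 in 2. Among the lower genes named before these, it was lost in 8 for Cenpf, 6 for Cenpe and 5 for Hmmr. For Nek2 it was lost in 4, for Plk1 in 3 and for Trim59 in 2.

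The count of lower genes depended on how partners were chosen. When partners were also matched on the number of G2/M genes, an alternative added after the data had been seen, 24 genes were higher, 22 of them among the 28, but 1 was lower. The median of the G2/M list was then -0.23 in the PKCi and -0.20 in the control library, while that of the NF-kB list was 0.43 and 0.45. With a threshold of 3 Csf2 UMIs 21 genes were higher and 1 lower, and without barcodes over 80000 UMIs 21 were higher and 19 lower.

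Cxcl1, Csf1 and Tnfaip3 rose from class to class of Csf2 UMIs in both libraries. The genes here were picked on Csf2-high cells, with at least 5 Csf2 UMIs, against partners with 0. A difference between the class of 0 and those from 5 on was thus selected on and is no further support. Across cells with 0, 1 to 4, 5 to 9, 10 to 19 and 20 or more Csf2 UMIs, Ccl2 stood at 804, 978, 1353, 1893 and 2511 CPM in the PKCi library. In the control library it stood at 1308, 1750.3, 2187, 3113 and 2638 CPM, where the class of 20 or more has 38 cells. Cxcl1 stood at 1438, 1656, 2248, 2688 and 2994 CPM across the PKCi classes and at 1648, 2086, 2847, 3201 and 3289.9 CPM across the control classes. Csf1 stood at 417, 483, 597, 713 and 796 CPM in the PKCi and at 429, 579, 677, 872 and 885 CPM in the control library. Each class of these genes was above the one before it, with the exception of Ccl2 in the highest control class. For Cxcl1 and Csf1 the intervals of the control classes of 10 to 19 and 20 or more overlapped. Cxcl2 was level between those control classes, at 2313.3 and 2312.6 CPM. Tnfaip3 stood at 59.3, 69.4, 92.9, 109 and 118 CPM in the PKCi and at 52.3, 64.9, 90.1, 101 and 155 CPM in the control library. Plk1 went the other way, at 38.2, 31.97, 24.3, 22.04 and 12.7 CPM in the PKCi library, and in the control library its 33.8, 34.9, 20.7, 25.4 and 12.8 CPM were level below the threshold of 5 UMIs and lower from it on. Cenpe stood at 109.6, 116, 78.5, 102 and 56.8 CPM in the control library. There the interval of the class of 10 to 19 UMIs (93.7 to 110.8) overlapped that of the class of 0 (107.8 to 111.4). Hilpda and Abtb2 had their highest level of all in control cells with 20 or more Csf2 UMIs, at 425 and 93.9 CPM. These classes were not matched for depth, and their median depths lay between 35700.5 and 41151.5 UMIs in the PKCi and between 38397.5 and 47191 UMIs in the control library.

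**Figure D4:**
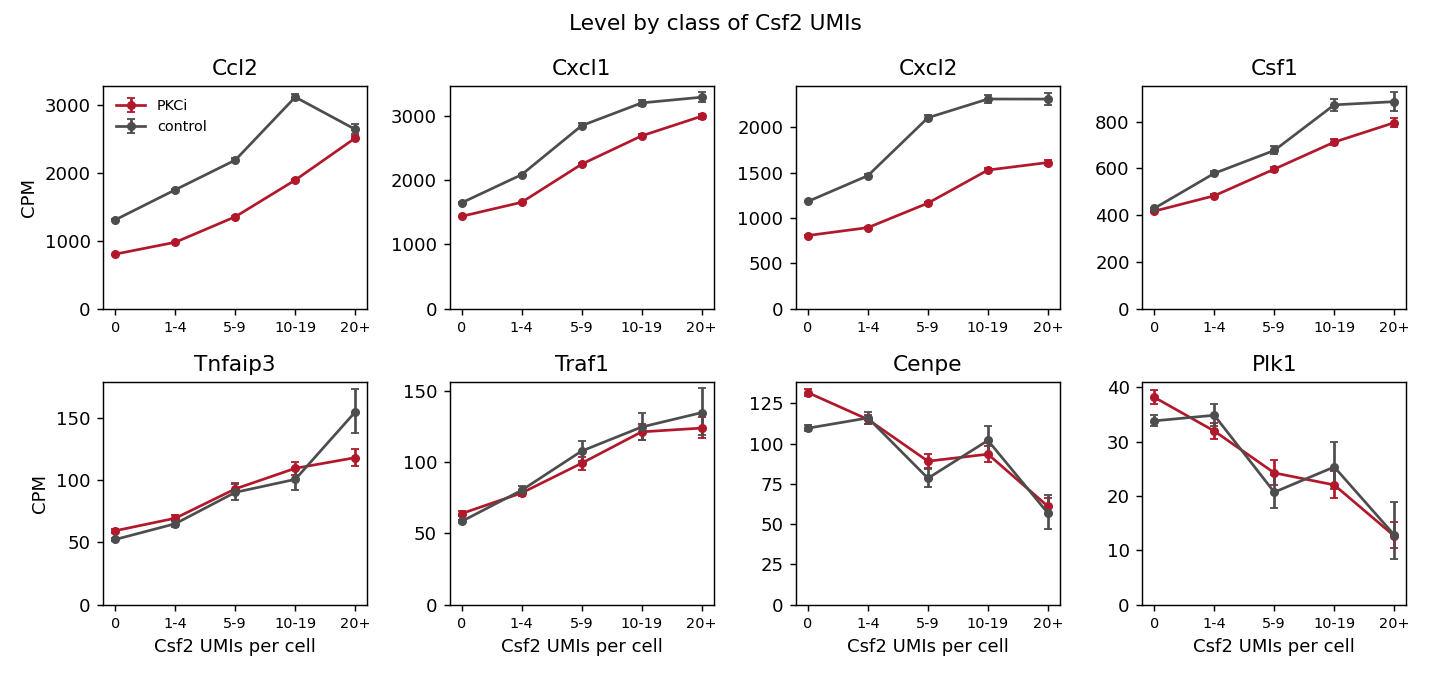
CPM (vertical axes, from 0) of 8 genes in gate cells with 0, 1 to 4, 5 to 9, 10 to 19 and 20 or more Csf2 UMIs (horizontal axes) in the PKCi library (red) and the control library (grey); bars are exact 95% counting intervals. In both libraries the chemokine, Csf1, Tnfaip3 and Traf1 levels are higher from 5 UMIs on than at 0, which the genes were picked for. In the last control class Ccl2 ends lower than in the class before it, and Cxcl2 ends level with it. Cenpe and Plk1 are lowest in the last class.

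Over single cells likeness to Csf2 was ranked by the lower of the 2 libraries' correlations, and Cxcl1, Cxcl2 and Ccl2 came first. With cells thinned to 10000 UMIs, Spearman's rho with Csf2 was 0.319 in the PKCi and 0.231 in the control library for Cxcl1, over 4475 and 4260 cells. It was 0.241 in the PKCi and 0.220 in the control library for Cxcl2 and 0.306 in the PKCi and 0.214 in the control library for Ccl2. For Nfkbia it was 0.248 in the PKCi and 0.184 in the control library, and for Csf1 0.176 in the PKCi and 0.174 in the control library. Ier3, Junb, Rhob, Zfp36 and Nfkbiz completed the 10 highest, all at 0.135 or more in both libraries. The cells of a library share its depth and its free RNA, and these values are a description.

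Ccl2 and Cxcl2, which were higher beside Csf2 within each library, were not higher in the library with more Csf2. Over the whole gate Csf2 was higher in the PKCi library, as given above, whereas Ccl2 stood at 1082 CPM in the PKCi and 1502 CPM in the control gate, a ratio of 0.720 (0.716 to 0.725). Cxcl2 stood at 967 CPM in the PKCi and 1328 CPM in the control gate, a ratio of 0.729 (0.724 to 0.733). Cxcl1 stood at 1761 CPM in the PKCi and 1852 CPM in the control gate, a ratio of 0.951 (0.946 to 0.955), and Csf1 at 497 CPM in the PKCi and 488 CPM in the control gate, a ratio of 1.02 (1.01 to 1.03). Tnfaip3 stood at 72.6 CPM in the PKCi and 59.1 CPM in the control gate, a ratio of 1.23 (1.2 to 1.26), and Dusp2 had a ratio of 1.44. Among Csf2-high cells alone Ccl2 stood at 1782 CPM in PKCi and 2551 CPM in control Csf2-high cells, a ratio of 0.699 (0.690 to 0.707). Cxcl1 stood at 2556 CPM in PKCi and 3020.0 CPM in control Csf2-high cells, a ratio of 0.847 (0.838 to 0.856), and Csf1 at 679 CPM in PKCi and 768 CPM in control Csf2-high cells, a ratio of 0.884 (0.866 to 0.903). Cxcl2 was lower in PKCi Csf2-high cells, with a ratio of 0.629 (0.621 to 0.638), as was Hilpda with 0.661 (0.637 to 0.687). Of the 28 genes higher in Csf2-high cells, 0 passed 1.5-fold upwards and 3 passed it downwards in PKCi over control Csf2-high cells. Over all 6309 genes measured, 0.697% passed upwards and 0.666% downwards, so 0 of 28 upwards is near that share. Besides Cxcl2 and Hilpda, the 3 include a predicted gene with a ratio of 0.625, against 0.395 between partners.

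The stress and immediate early genes Gdf15, Sesn2, Trib3, Fos and Fosb were higher, and Hmox1, Mt2 and Hnrnpa0 lower, in PKCi than in control Csf2-high cells. Of 6309 genes measured, 44 were at least 1.5 times higher (0.697%) and 42 lower (0.666%) in PKCi than in control Csf2-high cells. Between the Csf2-zero partners of the libraries, 21 of 6486 were higher (0.324%) and 40 lower (0.617%), and 17 higher and 20 lower genes passed in both kinds of cell. Fam214a stood at 29.4 CPM in PKCi and 10.5 CPM in control Csf2-high cells, a ratio of 2.79 (2.39 to 3.3), against 1.21 between partners. Gdf15, a stress-induced cytokine gene, stood at 114 CPM in PKCi and 46.2 CPM in control Csf2-high cells, a ratio of 2.46 (2.28 to 2.66), against 2.14 between partners. Fos stood at 1067 CPM in PKCi and 546 CPM in control Csf2-high cells, a ratio of 1.96 (1.91 to 2.0), against 1.56 between partners. Fosb had a ratio of 1.91 (1.85 to 1.98), against 1.43 between partners. Heg1, which encodes a membrane protein of endothelial junctions, had 1.97 (1.81 to 2.15), against 0.981, and 1 barcode held 9.5% of its UMIs in PKCi Csf2-high cells. The amino acid transporter gene Slc7a3 had 2.21 (1.87 to 2.65), against 1.75. The stress genes Sesn2 and Trib3, both targets of the factor ATF4, had 1.88 (1.73 to 2.05) and 1.88 (1.68 to 2.11), against 2.11 and 1.87. Differences between the 2 kinds of cell in these ratios were not tested. The phosphatase genes Dusp4, Dusp6 and Dusp10, chosen after their values were seen, had ratios of 1.55, 1.6 and 1.53, against 1.31, 1.21 and 1.22 between partners. No other gene of the 17 on the ERK feedback list passed in either direction, where 0.697% of all measured genes passed upwards. Dusp2 stood at 178 CPM in paired PKCi and 145 CPM in control Csf2-high cells, and Dusp5 at 115 and 97.6 CPM.

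**Figure D5:**
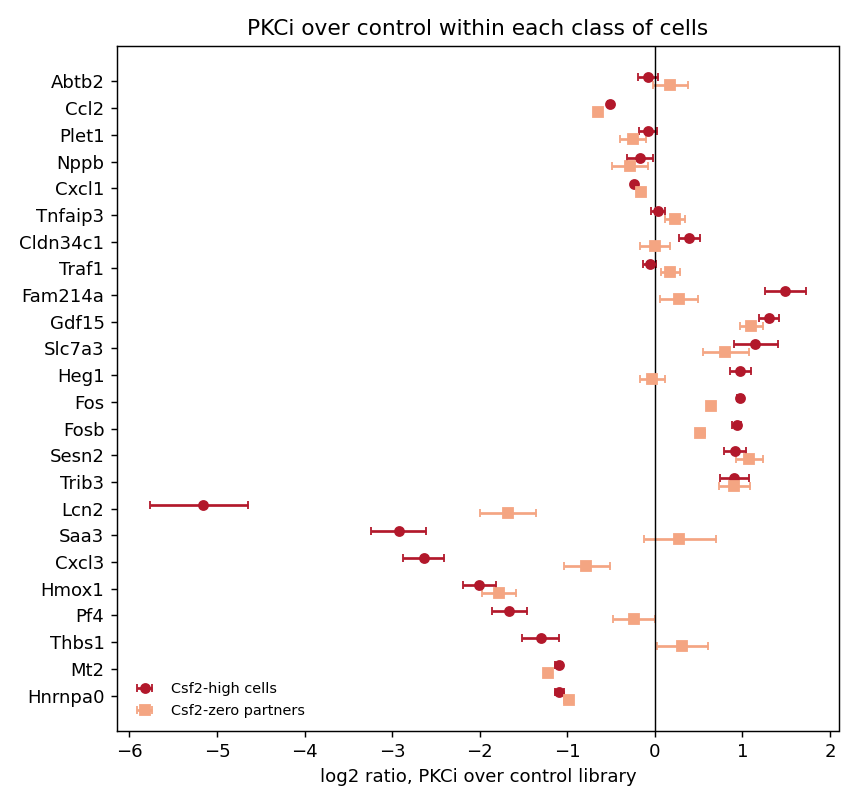
Log2 ratio of the PKCi over the control library (horizontal axis) among Csf2-high cells (dark red circles) and among their Csf2-zero partners (light squares), with exact 95% counting intervals, for 8 genes that are higher in Csf2-high cells than in partners and for the 8 highest and 8 lowest named genes between the libraries. Ccl2 lies left of 0 in both kinds of cell, Gdf15 right of 0 in both, and Lcn2, Saa3, Cxcl3, Pf4 and Thbs1 lie further left in Csf2-high cells.

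On the lower side several genes rested on few control cells. Lcn2, the gene of the iron-trapping protein lipocalin 2, stood at 0.696 CPM in PKCi and 25.2 CPM in control Csf2-high cells, and 57 control cells held it, 1 of them with 16.9% of the UMIs. Saa3, an acute phase gene, stood at 2.65 CPM in PKCi and 20.1 CPM in control Csf2-high cells, with 35.5% in 1 control cell. For Cxcl3 that cell share was 48.9%, for the platelet factor gene Pf4 51.8% and for Thbs1, the thrombospondin gene, 42.9%. The following genes were spread over many cells. Hmox1, the haem oxygenase gene, stood at 8.93 CPM in PKCi and 35.8 CPM in control Csf2-high cells, a ratio of 0.249 (0.219 to 0.284), against 0.291 between partners. Mt2, a metallothionein gene, stood at 241 CPM in PKCi and 517 CPM in control Csf2-high cells, with 0.430 as the ratio between partners. Hnrnpa0, the gene of an RNA-binding protein, stood at 151 CPM in PKCi and 323 CPM in control Csf2-high cells, with 0.506 between partners. When genes with over 20% of their UMIs in 1 barcode were left out, a choice made after the data had been seen, 44 genes were higher and 36 lower.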

How the data were processed

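RNA of single cells was measured in 2 libraries, 1 per treatment. The authors deposited UMI counts for 32285 genes per barcode, not normalized, made with Cell Ranger 7.0.0 per the file headers with 10x 3' chemistry. GRCm38 and Seurat are named in the submitters' processing notes with no role given for Seurat. The libraries held 229219749 UMIs (PKCi, 7457 barcodes) and 222641855 UMIs (control, 6688 barcodes).

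The gate, the Csf2 threshold and the gene lists were chosen with earlier results of these data known. Counts were summed over Csf2-high cells and over partners matched on total UMIs within 20%, without replacement. Log2 ratios had 0.5 count added per sum. Ratios and levels have exact 95% intervals, the ratio of shares an interval on the log scale, and all cover counting error only. Named genes were the 15 highest and 10 lowest called ratios, ranked by the library nearer to 1, up to 4 genes of each of 39 lists together with the factors known at the Csf2 promoter, and the 8 highest and 8 lowest between libraries; mitochondrial, ribosomal and predicted genes were not named, and 1 of the lowest is not reported here. Doublets were called with Scrublet at an expected rate of 6%, marked 1.83% of PKCi and 1.74% of control barcodes, and were left out only as an alternative. Alternatives changed the threshold, the gate, depth, matching, scaling, cell cycle and the filter on low values.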

Additional observations from a re-analysis of the deposited data

How the results depend on the processing

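The share of Csf2-high cells was higher in the PKCi library under all alternatives, with a log2 ratio of 1.41. It moved to 1.70 at 10 Csf2 UMIs and lay at 1.25 at 3. The count of 28 higher genes in Csf2-high cells moved to 49 at 10 Csf2 UMIs (25 shared), 103 with a filter of 10 UMIs and no CPM minimum, and 3 at a fold of 2. The count of 11 lower genes moved to 1 at 3 Csf2 UMIs, 17 at 10 Csf2 UMIs, 19 without barcodes over 80000 UMIs, 6 without matching, 6 with the median of ratios, 124 with no CPM minimum, 0 at a fold of 2 and 1 with partners matched on G2/M genes. Among cells with fewer than 3 G2/M genes, which left 238 PKCi and 68 control cells, 21 genes were higher and 13 lower, of which 9 and 0 were among those called before. Between libraries, the 44 higher genes moved to 74 at 10 Csf2 UMIs, 438 with no CPM minimum and 3 at a fold of 2, and the 42 lower genes to 515 with no CPM minimum and 11 at a fold of 2. Among cells with fewer than 3 G2/M genes these counts were 144 higher and 148 lower. For those changes other than the filters and the fold, the cause was not tested. Of 437 values for the 25 named genes, 358 stayed on their side of the threshold, 79 fell short of it and 0 reversed; Idi1 fell short most often, in 14. The median of the NF-kB list and that of the AP-1 list stayed above 0, and that of the G2/M list below 0, in both libraries under each alternative run. Among cells with fewer than 3 G2/M genes, however, the G2/M median was -0.04 in the PKCi and -0.24 in the control library. The PKCi value was level with the -0.05 over all measured genes in the main setting. That alternative chose its cells by these same genes. Matching on G2/M genes, leaving out shared barcodes and leaving out dominant barcodes were chosen after seeing the data. The depth limits what can be said of genes under 20 CPM, and 1 library per treatment limits every difference between treatments. No paired analysis was possible because each treatment has 1 library.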

Other observations

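In several other gene groups no gene reached 1.5-fold in both libraries between Csf2-high cells and partners. Of 14 MHC class I presentation genes 11 were measured, 0 were higher or lower, and 10 had log2 ratios above 0 in both libraries, against 1333 of all 6255 measured genes. The median log2 ratio was 0.15 in the PKCi and 0.14 in the control library, and 0.25 and 0.24 at a threshold of 10 Csf2 UMIs. H2-K1, a classical class I gene, stood at 507 CPM in Csf2-high cells and 435 CPM in partners of the PKCi library, and at 476 CPM in Csf2-high cells and 418 CPM in partners of the control library. Cd274, the PD-L1 gene, was under the filter in both libraries, at 5.41 CPM in Csf2-high cells and 5.93 CPM in partners of the PKCi library, and at 4.93 CPM in Csf2-high cells and 4.81 CPM in partners of the control library. The type I interferon list had 1 measured gene. The protein kinase C list has 12 genes and includes the protein kinase D genes Prkd1, Prkd2 and Prkd3. Of these 12 genes 6 were measured, 0 were higher or lower, and the median was 0.00 in the PKCi and -0.06 in the control library. Prkca, a classical isoform gene, stood at 75.1 CPM in Csf2-high cells and 69.6 CPM in partners of the PKCi library, and at 94.3 CPM in Csf2-high cells and 91.8 CPM in partners of the control library, and Prkci, an atypical isoform, had log2 ratios of -0.34 in the PKCi and -0.44 in the control library. The list of apoptosis inhibitors and antagonists, to which Xiap belongs, had 6 measured genes and a median of -0.03 in the PKCi and -0.07 in the control library. Hypoxia and glycolysis genes, with 16 measured, had a median of -0.02 in the PKCi and 0.05 in the control library, and Hilpda, which is not on that list, was higher. The ATF4 target list (15 measured) had -0.04 in the PKCi and -0.04 in the control library, endoplasmic reticulum chaperones (15) -0.09 in the PKCi and -0.13 in the control library and heat shock genes (8) -0.07 in the PKCi and -0.12 in the control library.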
